A study of Mus musculus with 29 samples.

Results

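The CARMIL genes Carmil1, Carmil2 and Carmil3 were followed through the lung methylomes of adult mice as every window of the percentage table that carried one of these gene names, ordered by position. That gave 69 of the 260686 windows, with 53 in Carmil1, 7 in Carmil2 and 9 in Carmil3. Carmil2 was picked because an earlier look at the same data had shown a large increase after allergen challenge in both arms of the study, so its OVA differences, and the number of its windows past a limit, are described here without a test. Carmil1 and Carmil3 came in by family name alone, and their OVA differences were tested.

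CARMIL proteins (capping protein, Arp2/3 and myosin I linkers) bind the heterodimer that caps the fast-growing ends of actin filaments and loosen its grip, which leaves filament ends free to grow at the edge of a moving or activated cell. Carmil1 is broadly expressed and works at the leading edge and in macropinocytosis, Carmil3 is best known from neurons, and Carmil2, also called Rltpr, is a scaffold in T cells that acts downstream of the costimulatory receptor CD28. Methylation of cytosines in CpG pairs is typically low at CpG-rich gene starts and high along gene bodies, and short CpG-rich stretches inside genes can lie between these states and differ between cell types.

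The study asked whether air pollution exposure of the dam altered the response of adult offspring to allergic airways disease (AAD). DNA came from lung homogenate of 13-week-old female BALB/c offspring after lung function tests, and was read by whole genome enzymatic methyl-sequencing (WGMS), which scores each cytosine as methylated or not. Dams had received intranasal saline (Sham) or particulate matter (PM2.5, here PM) before mating, through gestation and until weaning, and offspring were challenged with aerosolised ovalbumin (OVA), an egg protein, or with saline, which gave 7 libraries each of Sham, Sham-OVA and PM and 8 of PM-OVA. The methods describe sensitisation of the offspring with injected OVA and alum and do not set the saline controls apart at that step, and the labels give neither the litter nor the dam of a library, so p-values measure the spread between libraries, of which some may share a dam.

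Windows of the table count 100 CpG cytosines across both strands, which was 50 CpG pairs in 68 of the 69 windows and 91 in 1 Carmil1 window, so that CpG-rich windows are short, and the value of a window is the percentage of methylation (%DNAm) averaged over its cytosines. The study describes its sequencing as of high coverage, but the table holds no read counts, so the depth behind the value of a single window is unknown here and precision rests on the number of libraries. All 69 windows had a value in all 29 libraries. Sham replicate 1 stood apart and went against the description of the offspring as female, with values in 1224 of 1230 Y chromosome windows against 29 to 46 in the other 28 libraries, and the main differences and counts for OVA in Sham are also given without it. Differences are in percentage points between group means, tested with limma and Benjamini-Hochberg adjustment over 259167 windows, and windows that differed by 10 points or more at an adjusted p below 0.05 are called differentially methylated regions (DMRs). In homogenate, fewer cells of a type and a changed state of the same cells cannot be told apart.

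The sequences of most interest lie in Carmil2 (ENSMUSG00000050357, GRCm38 chr8:105686274-105698187, plus strand, 39 exons). They are shown for the CpG-dense window that differed most after OVA, for the window that follows it, and for the stretch before the gene start. From both windows the 300 bases with the most CpG pairs were taken, whereas the stretch before the gene start was fixed by position. Their CpG counts are therefore not compared like for like. Capitals mark CpG pairs, and all 3 are read 5′ to 3′ on the plus strand, which is the strand of the gene.
CpG-dense window, chr8:105693834-105694133: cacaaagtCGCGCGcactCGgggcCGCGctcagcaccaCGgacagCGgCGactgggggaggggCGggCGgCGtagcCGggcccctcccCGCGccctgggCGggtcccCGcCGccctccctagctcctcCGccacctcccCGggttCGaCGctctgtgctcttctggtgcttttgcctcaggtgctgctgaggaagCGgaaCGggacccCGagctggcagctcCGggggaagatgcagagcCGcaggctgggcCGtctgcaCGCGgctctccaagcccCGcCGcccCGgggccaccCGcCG
Following window, chr8:105695249-105695548: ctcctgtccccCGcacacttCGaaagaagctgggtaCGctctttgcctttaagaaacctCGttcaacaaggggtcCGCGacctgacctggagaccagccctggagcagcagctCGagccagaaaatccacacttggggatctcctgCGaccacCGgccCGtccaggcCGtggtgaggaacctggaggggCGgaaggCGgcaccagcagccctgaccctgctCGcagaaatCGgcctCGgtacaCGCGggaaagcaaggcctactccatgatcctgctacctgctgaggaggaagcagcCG
Before the gene start, chr8:105685760-105686009: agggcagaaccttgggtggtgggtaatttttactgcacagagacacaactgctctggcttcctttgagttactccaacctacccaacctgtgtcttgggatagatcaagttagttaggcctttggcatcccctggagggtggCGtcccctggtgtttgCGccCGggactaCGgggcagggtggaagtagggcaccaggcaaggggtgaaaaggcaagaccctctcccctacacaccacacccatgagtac
The stretch from the CpG-dense window held 35 CpG pairs in 300 bases and a GC content of 75.3%, and 120 of its bases were coding. The stretch from the following window was coding throughout and held 19 CpG pairs in the same length, at 62.3% GC. The 250 bases before the start of the RefSeq gene held 4 CpG pairs at 56% GC. That start, chr8:105686010, lies upstream of the annotated start from which distances are given. Over whole windows, the highest CpG density among the 7 Carmil2 windows was not at the 5′ end but deep in the gene, over exon 30 and its flanks. The stretch shown from that window spans the end of the intron before exon 30 and part of that exon.

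That whole window, chr8:105693829-105694357, was 529 bp long and lay 7555 to 8083 bp from the annotated gene start. It contained all of exon 30 (236 coding bp) with intron on either side and 0 untranslated bases, and its 9.45 CpG pairs per 100 bp set it beside the start window of Carmil3 at 9.28 and the window that follows that start at 8.45, and above the start window of Carmil1 at 6.91. Windows as short as 600 bp or less made up 3.60% of all those tested, and 95.8% of these 9340 windows had under 10 %DNAm in Sham. Only 266 of them (2.85%) lay from 10 to under 30 %DNAm in Sham, which is where the Carmil2 window was found.

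In that window, the 7 Sham libraries ranged from 4.98 to 25.3 %DNAm, with a median of 15.4. The 7 Sham-OVA libraries ranged from 34.2 to 50.4, with a median of 40.4. Every Sham-OVA library was therefore above every Sham library. The 7 PM libraries ranged from 15.03 to 24.8 %DNAm with a median of 17.9, and the 8 PM-OVA libraries from 36.8 to 51.8 with a median of 45.4. Again the challenged and unchallenged libraries did not overlap. Groups without overlap and higher after OVA made up 3.15% of all windows in Sham and 1.65% in PM. Sham averaged 15.6% ± 6.22 (SD, n = 7), Sham-OVA averaged 42.6% ± 6.00 (SD, n = 7), PM averaged 18.1% ± 3.30 (SD, n = 7) and PM-OVA averaged 44.7% ± 6.07 (SD, n = 8).

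After OVA the window was higher by 27.0 points in Sham offspring and by 26.6 points in PM offspring, in 2 comparisons that share no library. Among all 259167 windows tested, these were the 7th and the 2nd highest differences, and among the 9340 short windows the 5th and the 1st. Of the short windows, 0.664% were higher DMRs in Sham and 0.343% in PM. Because Carmil2 was chosen for this rise, the ranks describe the choice and carry no test. Without Sham replicate 1 or any other single library, the difference stayed between 25.2 and 28.6 points in Sham and between 25.6 and 27.7 points in PM.

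**Figure D1:**
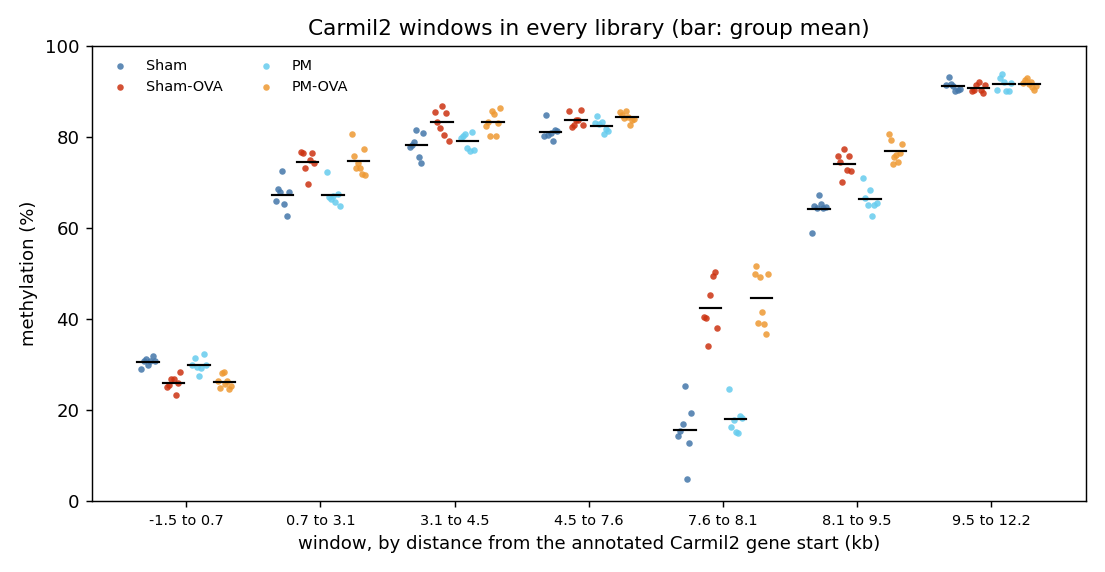
Methylation (%DNAm, vertical axis) of the 7 Carmil2 windows in each of the 29 libraries, with windows placed along the horizontal axis by their distance in kb from the annotated gene start. Points are libraries coloured by group and bars are group means. In the window from 7.6 to 8.1 kb, unchallenged libraries lie between 4.98 and 25.3% and challenged ones between 34.2 and 51.8%, whereas at the gene start the OVA groups lie lower.

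Maternal exposure, which played no part in choosing the gene, gave much smaller differences in the CpG-dense window. PM exceeded Sham by 2.47 points (95% interval -3.24 to 8.18), with an exact 2-sided permutation p of 0.372, or 0.499 adjusted over both maternal comparisons. After OVA, PM-OVA exceeded Sham-OVA by 2.12 points (95% interval -3.41 to 7.65), with an exact 2-sided permutation p of 0.499, likewise 0.499 when adjusted. Without Sham replicate 1 the difference without OVA was 2.28 points, with an exact 2-sided permutation p of 0.452. Over all single libraries left out in turn, it ranged from 0.70 to 4.09 points without OVA and from 0.72 to 3.42 points with OVA. The limma adjusted p over all windows was 0.906 without OVA and 0.963 with OVA. The interaction, the OVA difference of PM offspring less that of Sham offspring, was -0.35 points (95% interval -8.29 to 7.60, limma adjusted p = 0.902), and picking a window that was higher in both arms favours a small value here. These intervals leave room for maternal differences of up to 8.18 points without OVA and 7.65 points with it, so they bound the difference and do not show it to be absent.

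The rest of Carmil2 formed a graded profile. The window over the gene start (chr8:105684761-105687018, exons 1 to 3) averaged 30.7 %DNAm in Sham, and the next windows averaged 67.3, 78.2 and 81.2, before the drop to 15.6 at exon 30. Beyond exon 30 the level returned to 64.3 and then to 91.2 in the last window, which also overlaps Acd, a telomere shelterin gene. In each library the CpG-dense window was lower than the window before it, by a mean of 65.6 points in Sham and 64.4 in PM. With OVA this step was 41.3 points in Sham-OVA and 39.7 in PM-OVA.

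The window that follows exon 30 (chr8:105694358-105695756, exons 31 to 33) went the same way by a smaller amount. Its Sham libraries ranged from 59.0 to 67.3 %DNAm with a median of 64.7, and its Sham-OVA libraries from 70.2 to 77.3 with a median of 74.5. PM libraries ranged from 62.7 to 70.9 with a median of 65.5, and PM-OVA libraries from 74.2 to 80.8 with a median of 76.2. The OVA groups did not overlap the unchallenged ones in either arm, beside 3.15% of all windows in Sham and 1.65% in PM that were higher without overlap. The differences of 9.83 points in Sham and 10.6 points in PM fell on either side of the 10-point minimum, so the windows of Carmil2 past that minimum numbered 1 for OVA in Sham and 2 for OVA in PM. Without Sham replicate 1, which was the lowest Sham library here, the Sham difference of this window was 8.94 points. Higher DMRs made up 0.479% of all windows in Sham and 0.263% in PM, and 0.226% in both, and nothing is read from the Carmil2 count beside them, since the gene was chosen on this contrast.

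Upstream of exon 30 the differences shrank with approach to that exon. The window over exons 4 to 14 (chr8:105687019-105689406) was 7.25 points higher in Sham-OVA than in Sham and 7.51 points higher in PM-OVA than in PM. Over exons 14 to 21 the differences were 5.06 and 4.25 points, and over exons 21 to 29 they were 2.63 and 1.84 points. In these 3 windows the challenged and unchallenged libraries overlapped in both arms.

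The gene start went the other way. Its Sham libraries ranged from 28.99 to 32.0 %DNAm with a median of 30.9, and its Sham-OVA libraries from 23.4 to 28.5 with a median of 26.0. The PM libraries ranged from 27.5 to 32.3 with a median of 29.97, and the PM-OVA libraries from 24.6 to 28.5 with a median of 26.0. The OVA difference came to -4.60 points in Sham, where the groups did not overlap, and -3.77 points in PM, where they did. Groups without overlap and lower after OVA made up 5.43% of all windows in Sham and 10.3% in PM. In the last window (chr8:105695757-105698480) the differences were -0.45 and 0.04 points. Averaged over its 7 windows, Carmil2 stood at 61.2% ± 1.89 (SD, n = 7) for Sham, 67.9% ± 1.38 (SD, n = 7) for Sham-OVA, 62.1% ± 1.38 (SD, n = 7) for PM and 68.9% ± 1.66 (SD, n = 8) for PM-OVA, a mean that hides opposite differences within the gene.

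**Figure D2:**
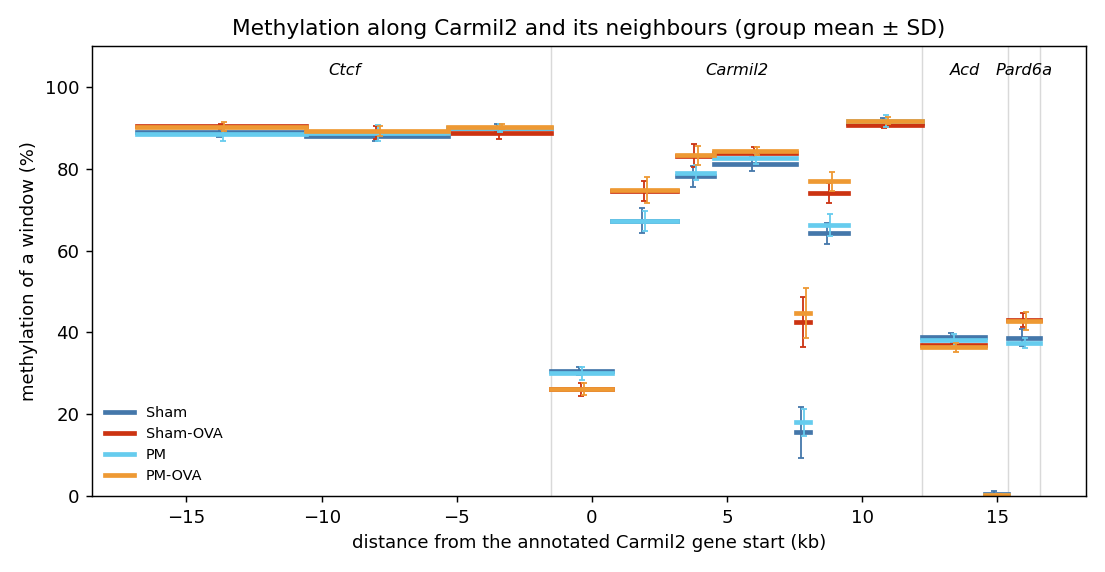
Methylation (%DNAm, vertical axis) along Carmil2 and the neighbouring genes, against distance in kb from the annotated Carmil2 gene start. Each horizontal bar spans 1 window and marks a group mean, with SD as the vertical line (n = 7, and n = 8 for PM-OVA). The profile drops from 81.2% to 15.6% in Sham at exon 30, and the OVA bars stand 27.0 and 26.6 points above the unchallenged ones there, while the bars of Ctcf nearly coincide.

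The differences in neighbouring genes did not reach the size of that at exon 30. The 3 windows before Carmil2 are named for Ctcf, the insulator protein, and averaged 87.9 to 89.9 %DNAm in Sham with OVA differences of -1.27 to 1.498 points. In PM the same windows differed by 0.27 to 1.89 points, and the farthest of them passed the limma threshold at 1.89 points (adjusted p = 0.0134). After Carmil2, the 2 Acd windows differed by -1.94 and -0.53 points in Sham and by -1.75 and 0.01 points in PM. The first of these windows passed in both arms (limma adjusted p = 0.0282 and 0.0327). The window of Pard6a, a cell polarity gene, rose from 38.8 to 43.1 %DNAm in Sham (4.37 points, limma adjusted p = 0.00130) and from 37.4 to 42.8 in PM (5.38 points, limma adjusted p = 7.21e-05). Windows of Ctcf, Acd and Pard6a therefore changed in places, by at most 5.38 points.

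Over libraries, the CpG-dense window varied together with parts of its own gene. After group means were subtracted, Pearson's r with it over 29 libraries was 0.43, 0.54 and 0.42 for the 3 windows upstream of it and 0.53 for the following window, but -0.16 for the gene start and -0.02 for the last window. Outside the family, the 5 highest values among 258502 complete windows were 0.727 in Efemp2, 0.714 in Pik3ap1, 0.714 in Dnaaf3, 0.711 in Myo3b and 0.709 in Mcph1. With the groups left in, the 5 most alike windows were in Lrch1 (0.948), Ctdsp2 (0.945), Lncppara (0.944), Ctnna1 (0.943) and Slfn5os (0.943), and the window following exon 30 reached 0.922. These 5 windows were all higher after OVA, for instance 6.12 to 19.7 %DNAm for Ctdsp2 from Sham to Sham-OVA and 53.9 to 66.6 for Lrch1. Windows share the libraries and were searched for likeness, so these values are a description. Levels shared by a whole library were not removed before correlation. PM replicate 1, the highest PM library in the CpG-dense window, also had the highest mean of all libraries over the tested windows, 70.2 %DNAm. Whether such shared levels gave the values of r within Carmil2 was not tested.

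Carmil1 (ENSMUSG00000021338, chr13:24012344-24280795, minus strand, 268.452 kb, 38 exons) was highly methylated along nearly all of its length. Its 53 windows had a median level of 83.2 %DNAm in Sham, and 52 of them were at 50% or more. The exception was the start window (chr13:24280161-24280884, which holds exon 1), where the Sham libraries ranged from 0.532 to 1.505%. At the other extreme, an intronic window (chr13:24226932-24229305) averaged 96.0% in Sham. The plot of levels along both genes shows this plateau.

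More Carmil1 windows fell than rose after OVA, by small amounts. In Sham offspring 23 of 53 windows fell and 7 rose at a limma adjusted p under 0.05, that is 43.4% and 13.2% of them, beside 22.3% and 13.3% of all windows. In PM offspring 26 windows fell and 3 rose, or 49.1% and 5.66%, beside 34.8% and 9.26% of all windows. The same direction passed in both arms for 22 falling and 3 rising windows, beside 19.7% and 7.57% of all windows. Over the gene, the median difference came to -1.03 points for OVA in Sham and -1.55 points for OVA in PM, against -0.41 and -1.03 points over all windows. Differences above 0 made up 39.6% of the Carmil1 windows in Sham and 20.8% in PM, beside 40.9% and 30.8% of all windows. With libraries centred to a common median, 19 fell and 10 rose in Sham, and 22 fell and 4 rose in PM, where centred backgrounds were 17.8% falling and 18.3% rising in Sham and 18.7% and 18.9% in PM. Without Sham replicate 1 the counts in Sham were again 23 and 7.

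Not a single Carmil1 window was a DMR in either OVA contrast, while limma gave 33 windows (62.3%) with an unadjusted p under 0.05 in each, beside 45% of all windows in Sham and 51.4% in PM. Lower DMRs made up 0.296% of all windows in Sham and 0.321% in PM, and 0.232% in both. Groups without overlap numbered 6 lower and 1 higher in Sham, beside 5.43% and 3.15% of all windows, and 12 lower and 0 higher in PM, beside 10.3% and 1.65%.

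The largest fall in Carmil1 was in chr13:24091744-24098135, which holds exons 22 and 23. Sham libraries there ranged from 83.2 to 87.6 %DNAm with a median of 85.4, and Sham-OVA libraries from 74.9 to 80.9 with a median of 77.4. PM libraries ranged from 84.5 to 86.7 with a median of 85.3, and PM-OVA libraries from 74.2 to 78.6 with a median of 76.1. The groups were apart in both arms, and the window fell by 7.52 points in Sham (limma adjusted p = 4.61e-08) and fell by 9.07 points in PM (limma adjusted p = 1.45e-09). The last window (chr13:24010499-24015585, with exon 38 and 3′ untranslated sequence) fell too, with differences of -5.98 points in Sham and -6.24 points in PM, again without overlap. An intronic window (chr13:24157970-24164715) had differences of -5.18 and -4.13 points, both past the limma threshold, and its libraries did not overlap either.

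Of the 7 Carmil1 windows that rose in Sham, 5 lay within the first 38396 bp of the gene. The largest rise was intronic, in chr13:24246208-24251332, 29463 to 34587 bp into the gene, where Sham libraries ranged from 57.5 to 63.7 %DNAm and Sham-OVA libraries from 64.4 to 71.7. PM libraries there ranged from 57.6 to 63.5 and PM-OVA libraries from 62.5 to 70.1. The groups were apart in Sham and overlapped in PM, with rises of 7.50 points (limma adjusted p = 2.74e-05) and 5.69 points (limma adjusted p = 0.000347). The adjacent window (chr13:24242399-24246178) rose by 6.11 points in Sham and 2.94 points in PM, with overlap in both arms. Without both PM-OVA libraries named Rel in the labels, a name that the labels do not explain, its rise in PM lost the call, at a limma adjusted p of 0.0514. Just inside the gene (chr13:24276862-24280129), methylation rose by 6.37 points in Sham (limma adjusted p = 0.000296), while in PM the difference was 2.24 points with a 95% interval of -0.18 to 4.67 (limma adjusted p = 0.140). The PM difference of this window depended on the setting. It passed with libraries centred (limma adjusted p = 0.0154) and was farthest from passing without both Rel libraries (limma adjusted p = 0.351).

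Level and direction went together in Carmil1. To keep the level and the difference on separate libraries, the Sham difference was set against the PM level and the reverse. Of 33 windows at 80 %DNAm or more in PM, 29 had a difference below 0 for OVA in Sham, and of 20 windows under 80%, 17 had one above 0. Of 31 windows at 80 %DNAm or more in Sham, all 31 had a difference below 0 for OVA in PM, whereas the 22 windows under 80% were divided into 11 above and 11 below 0. Over all windows of any level, 40.9% had a difference above 0 for OVA in Sham and 30.8% for OVA in PM. Shares of all windows split at 80% are not given, so these counts have no matching background. Pearson's r across the 53 windows was -0.478 for OVA in Sham and -0.510 for OVA in PM, beside -0.200 and -0.252 across all windows. Windows of a gene share libraries and are no replicates, and the limit of 80% was chosen with the values known.

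**Figure D3:**
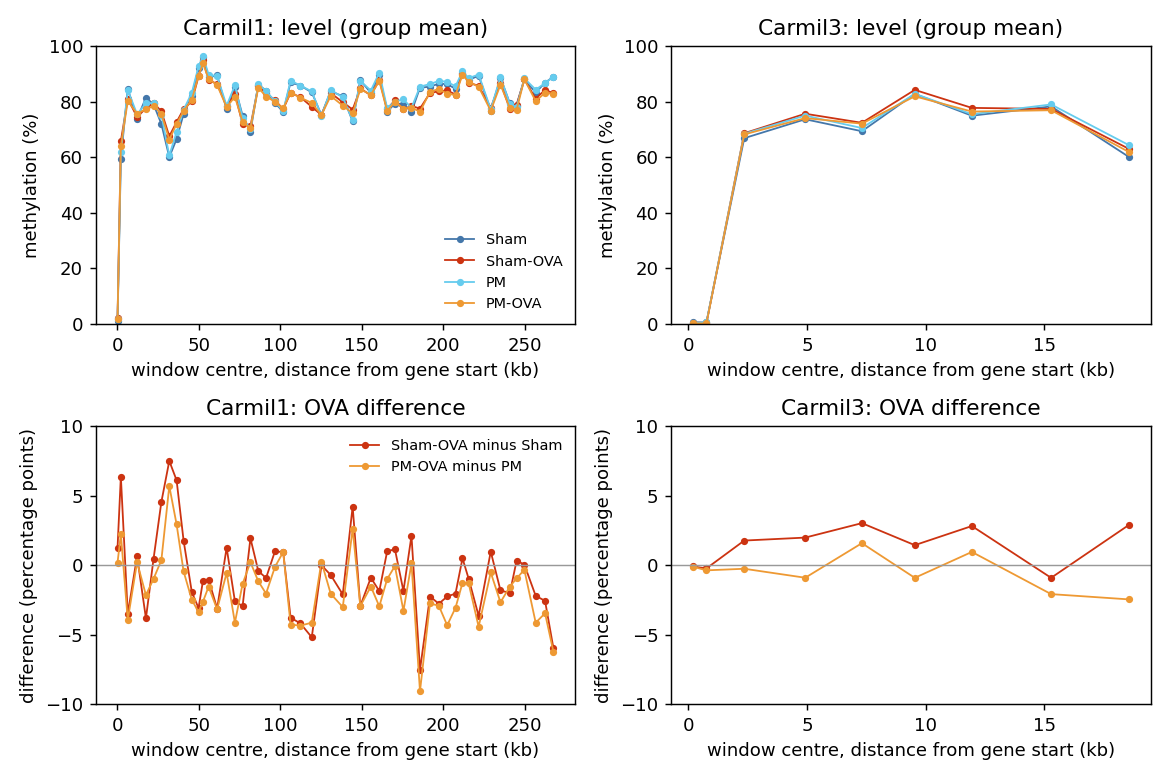
Upper panels give the mean methylation (%DNAm) of each group and lower panels the OVA difference in percentage points, for the windows of Carmil1 (left) and Carmil3 (right), against the distance of the window centre from the gene start in kb. Both genes start near 0% and then hold a plateau. Carmil1 differences reach -7.52 points in Sham and -9.07 points in PM in the same window about 186 kb from the start, and Carmil3 differences stay between -2.46 and 3.03 points.

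The start window of Carmil1 had a higher level in Sham-OVA, 2.32% ± 1.23 (SD, n = 7), than in Sham, 1.05% ± 0.379 (SD, n = 7), a rise of 1.27 points by limma (adjusted p = 0.00354) with overlapping libraries. Without Sham-OVA replicate 6, the highest library, the rise was 0.83 points (limma adjusted p = 0.0104). With OVA in PM the difference was 0.19 points (limma adjusted p = 0.548), or 0.46 points without PM replicate 4 (limma adjusted p = 0.191). No library exceeded 4.95 %DNAm in this window.

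Carmil3 (ENSMUSG00000022211, chr14:55490651-55508272, plus strand, 40 exons) had small differences throughout. Both windows at its 5′ end were nearly free of methylation. The first of them (chr14:55490574-55491112), over the gene start, averaged 0.576% ± 0.798 (SD, n = 7) among Sham libraries and 0.483% ± 0.730 (SD, n = 7) among Sham-OVA libraries. PM libraries had 0.312% ± 0.390 (SD, n = 7) and PM-OVA libraries 0.210% ± 0.122 (SD, n = 8). The next (chr14:55491122-55491713) averaged 0.594% ± 1.30 (SD, n = 7) among Sham libraries and 0.363% ± 0.418 (SD, n = 7) among Sham-OVA libraries. PM libraries had 0.558% ± 0.889 (SD, n = 7) and PM-OVA libraries 0.188% ± 0.0983 (SD, n = 8) there. These means moved with single libraries. The first window averaged 0.282% in Sham without replicate 4, 0.217% in Sham-OVA without replicate 7 and 0.176% in PM without replicate 5. The next averaged 0.106% in Sham without replicate 5 and 0.225% in PM without replicate 4. Neither window passed the limma threshold for OVA in either arm. These windows have a CpG density like that of exon 30 of Carmil2, and no library exceeded 3.52% in them. The other 7 windows averaged 60.1 to 82.7 %DNAm in Sham.

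With OVA in Sham, 1 of the 9 Carmil3 windows rose (chr14:55496795-55499133, exons 15 to 24, by 3.03 points, limma adjusted p = 0.00539) and 0 fell, and without Sham replicate 1 these counts were again 1 and 0. With OVA in PM, 1 fell (chr14:55504126-55507739, exons 33 to 39, by 2.08 points, limma adjusted p = 0.0164) and 0 rose. Of all windows, 13.3% rose in Sham and 34.8% fell in PM at that limit. Neither arm had a DMR, and limma gave 1 window in each with an unadjusted p under 0.05, beside 45% of all windows in Sham and 51.4% in PM. When libraries were centred, 4 windows rose in Sham, and in PM 1 rose and 0 fell, so the fall in PM was called before centring only. The gene mean was 56.3% ± 0.826 (SD, n = 7) for Sham, 57.7% ± 0.833 (SD, n = 7) for Sham-OVA, 57.4% ± 0.894 (SD, n = 7) for PM and 56.9% ± 0.751 (SD, n = 8) for PM-OVA.

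**Figure D4:**
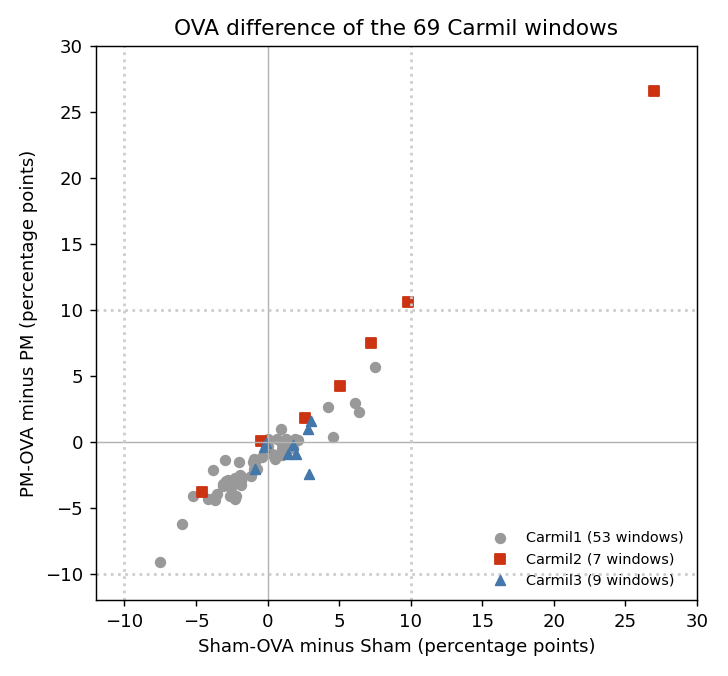
OVA difference in Sham (horizontal axis) and in PM offspring (vertical axis), both in percentage points, for the 69 windows of Carmil1, Carmil2 and Carmil3. Dotted lines mark the 10-point minimum of a DMR. The CpG-dense Carmil2 window sits alone at 27.0 and 26.6 points, the following Carmil2 window at 9.83 and 10.6 points, and the Carmil1 and Carmil3 windows lie between -9.07 and 7.50 points on both axes.

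Maternal PM exposure gave 0 DMRs and 0 windows with a limma adjusted p under 0.05 in the whole family, with or without OVA, and so did the interaction. These numbers were 0 over all 259167 windows as well. Unadjusted p under 0.05 was reached by 5 of 69 windows for PM without OVA, 2 for PM with OVA and 6 for the interaction, or 7.25%, 2.90% and 8.70%, against 5.79%, 5.96% and 7.40% of all windows.

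The smallest p for PM without OVA and for the interaction came from the same intronic Carmil1 window (chr13:24251355-24255906), next to the one with the largest rise. Its Sham libraries ranged from 69.6 to 74.5 %DNAm with a median of 71.3, and its PM libraries from 73.5 to 76.9 with a median of 75.02. Sham-OVA libraries ranged from 74.2 to 79.1 with a median of 75.7, and PM-OVA libraries from 73.1 to 77.5 with a median of 75.5. The unchallenged Sham libraries were thus mostly the lowest, with some overlap. PM exceeded Sham by 3.23 points (95% interval 1.45 to 5.02, limma adjusted p = 0.805). OVA raised the window by 4.55 points in Sham (limma adjusted p = 0.000309) and the difference in PM was 0.36 points, but the interaction of -4.18 points did not pass (95% interval -6.67 to -1.70, limma adjusted p = 0.554). For PM with OVA the smallest p was in Carmil3 (chr14:55499135-55501248), at -2.31 points (95% interval -4.06 to -0.57, limma adjusted p = 0.816). These windows were picked for their p, and the 95% intervals do not allow for that picking.

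In Carmil3, 7 of 9 windows had a difference above 0 for PM without OVA, and 0 of 9 for PM with OVA and for the interaction, with medians of 0.71, -0.46 and -1.86 points. Over all windows these medians were 0.26, -0.31 and -0.59 points, with 64.8% above 0 for PM without OVA, near the share in Carmil3 of 77.8%, 33.2% for PM with OVA and 28.4% for the interaction. In Carmil2 all 7 windows were above 0 for PM with OVA, with a median of 0.53 points. None of these windows passed on its own, and the 3 contrasts share libraries.

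Genes that act with the CARMIL proteins were looked up to place these values. Of 12 genes of capping protein and its regulators, 11 had windows, 139 in all, and 1 window was a DMR in each arm, beside 0.296% lower DMRs among all windows in Sham and 0.321% in PM. That window was in Capg, which caps actin filaments in macrophages, at chr6:72547802-72551255, and it fell, with differences of -15.5 points in Sham and -13.9 points in PM (limma adjusted p = 5.11e-09 and 1.07e-08). Capza1, Capza2 and Capzb, the subunits of capping protein itself, were not among the DMRs. At an adjusted p under 0.05, 18 windows of this list rose and 40 fell in Sham, and 12 rose and 42 fell in PM, with medians of -0.61 and -0.81 points. These were 12.9% and 28.8% of the list in Sham, beside 13.3% and 22.3% of all windows, and 8.63% and 30.2% in PM, beside 9.26% and 34.8%.

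Some windows of genes that mark the cells a homogenate can hold were DMRs, beside the 0.479% higher and 0.296% lower DMRs of all windows in Sham and 0.263% and 0.321% in PM. Among T cell markers (10 of 10 genes, 71 windows) a window of Cd2, an adhesion receptor, fell, by differences of -11.5 and -10.9 points, and was the list's DMR in each arm, while the genes of the CD3 chains had 0 DMRs. At an adjusted p under 0.05, 12 windows of the list rose and 25 fell in Sham (16.9% and 35.2%), and 8 rose and 25 fell in PM (11.3% and 35.2%). Over all windows, 13.3% rose and 22.3% fell in Sham and 9.26% rose and 34.8% fell in PM, so the falling share in PM was that of the background. The mean over the T cell list was 68.6 to 70.1 %DNAm in Sham and 67.7 to 68.9 in Sham-OVA libraries, and 69.2 to 70.4 in PM and 67.6 to 68.8 in PM-OVA libraries.

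B cell markers (5 of 6 genes, 68 windows) had 1 higher and 4 lower DMRs in each arm, and without Sham replicate 1 the lower ones in Sham numbered 3. They lay in Cd79b, Pax5 and Blk, and the one with the largest difference was in the kinase gene Blk, with differences of -13.1 and -13.5 points. At an adjusted p under 0.05, 18 rose and 17 fell in Sham (26.5% and 25% of the list), and 15 rose and 22 fell in PM (22.1% and 32.4%), beside 13.3% and 22.3% of all windows in Sham and 9.26% and 34.8% in PM. Their mean was 63.1 to 64.4 %DNAm in Sham, 62.3 to 64.2 in Sham-OVA, 63.7 to 64.8 in PM and 62.0 to 63.5 in PM-OVA libraries.

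Myeloid markers (7 of 7 genes, 61 windows) had 1 higher and 4 lower DMRs in Sham and 1 higher and 5 lower in PM. Of the lower ones, 3 in each arm were in Ptprc, the gene of CD45, which marks all leucocytes and not myeloid cells alone, and the others were in Spi1, a transcription factor of myeloid and B cells. The largest was in Ptprc, with differences of -19.1 and -16.5 points, while Csf1r, Itgam, Cd68, Adgre1 and Siglecf had 0 DMRs. At an adjusted p under 0.05, 12 rose and 19 fell in Sham (19.7% and 31.1% of the list), and 10 rose and 24 fell in PM (16.4% and 39.3%), where all windows had 13.3% and 22.3% in Sham and 9.26% and 34.8% in PM. The mean over the myeloid list was 73.8 to 75.1 %DNAm in Sham and 72.1 to 74.1 in Sham-OVA, and 74.3 to 75.3 in PM and 72.5 to 73.4 in PM-OVA libraries.

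Lung resident markers (10 of 10 genes, 66 windows) mostly rose among those that passed. At an adjusted p under 0.05, 30 rose and 5 fell in Sham (45.5% and 7.58% of the list), and 22 rose and 4 fell in PM (33.3% and 6.06%), against 13.3% rising and 22.3% falling among all windows in Sham and 9.26% and 34.8% in PM. There were 3 higher and 1 lower DMRs in Sham and 1 of each in PM. The largest went against the direction of the list, in Pecam1, an endothelial adhesion gene, where a window had differences of -18.0 and -15.9 points, and the same gene also counted 1 higher DMR in Sham and 1 in PM. Their mean ranged from 56.4 to 57.9 %DNAm in Sham and from 58.2 to 59.7 in Sham-OVA libraries, and from 56.1 to 58.5 in PM and 58.0 to 59.7 in PM-OVA libraries. Median differences in Sham and in PM were -0.88 and -1.02 points for T cells, 0.15 and -0.09 for B cells, -0.53 and -0.87 for myeloid cells and 1.94 and 1.08 for resident cells. Methylation at marker genes is not a count of cells, and the part of cell composition in the Carmil2 and Carmil1 values was not tested.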

How the data were processed

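WGMS of lung DNA gave 29 libraries in 4 groups taken from the labels. Per the labels and the methods, the authors ran Trim Galore and then the DRAGEN methylation pipeline against GRCm38, and averaged calls in SeqMonk over windows of 100 CpG cytosines with at least 10 informative CpGs. The deposited values are a percent methylation per window and library, with no read counts. The study describes high coverage, but the depth of a single window is unknown here, no counting error can be given, and a count model could not be used. No scaling between libraries is described. In total, 0 columns had no sample.

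Each percentage was turned into log2((percent + 1)/(100 - percent + 1)) and fitted with a 4-group model in limma (version 3.58.1 in R 4.3.3, tables read through the R library data.table at version 1.17.8) for the 259167 windows with 3 or more values in each group. Contrasts were 2-sided with Benjamini-Hochberg adjustment, and the code was tested on simulated data. Intervals at 95% come from limma on untransformed percentages. Exact permutation tests, annotation with GENCODE M21 and RefSeq, and sequences of GRCm38 used Python 3.11.15 (scipy 1.17.1).

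Windows named in the text were the Carmil2 window with the largest OVA difference, every Carmil2 and Carmil3 window, the 3 largest rises and falls of Carmil1 with its highest and lowest level, gene starts, the smallest p of each maternal contrast and the interaction, 3 flanking windows on each side of Carmil2, the 5 most alike windows, and the largest DMR of each gene list. Of these lists, 1 is not reported here. The members, lists, rules and alternatives were chosen with earlier results of these data known. Alternatives were another transform, offset, scaling, filter, moderation, threshold or set of libraries, and a replicate block.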

Additional observations from a re-analysis of the deposited data

Results flagged for a closer look

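In 14 of 124 groups of libraries, over 31 windows, a single library lay farther from the rest than Dixon's 95% limit allows, where chance gives about 1 in 20. In the CpG-dense Carmil2 window, PM replicate 1 had 24.8 %DNAm against 15.03 to 18.7 in the other PM libraries, and the same library had 72.4 against 65.0 to 67.6 over exons 4 to 14. In the window following exon 30, Sham replicate 1 had 59.0 against 64.4 to 67.3, and over exons 21 to 29 Sham replicate 2 had 84.7 against 79.1 to 81.5.

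The other values were mostly near 0, at or just after gene starts. In the Carmil1 start window Sham-OVA replicate 6 had 4.95 and PM replicate 4 had 3.26 %DNAm. In the Carmil3 start window Sham replicate 4 had 2.34, Sham-OVA replicate 7 had 2.08 and PM replicate 5 had 1.13, and in the window after it Sham replicate 5 had 3.52 and PM replicate 4 had 2.55. Over exons 24 to 28 of Carmil3, Sham replicate 1 had 79.9 against 82.3 to 84.1. Beside Carmil2, PM replicate 3 had 84.8 against 88.2 to 90.3 in a Ctcf window, and Sham-OVA replicate 5 had 0.340 in the Acd start window.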

How the results depend on the processing

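Of the results under other settings, 440 kept their direction and their side of the threshold or count, 12 changed sign, 9 were counts that grew and 2 were counts that shrank. A minimum difference of 5 points raised the DMRs of Carmil1 and Carmil3 from 0 to 6 in Sham and 3 in PM, and the Carmil2 windows past the DMR limits in Sham, a count given as a description with no test, from 1 to 4. The share of all windows past a 5-point minimum is not given, so nothing is read from these counts. A minimum of 15 points lowered the Carmil2 windows past the limits in PM from 2 to 1, and centring raised those in Sham to 2, which is the 10-point limit crossing the window after exon 30. Leaving out single libraries gave 1 to 2 such Carmil2 windows in Sham, with 2 without Sham replicate 4 or 5 or Sham-OVA replicate 3, 5 or 7, and 1 to 2 in PM, with 1 without PM replicate 5. The OVA difference of the CpG-dense window then ranged from 25.2 to 28.6 points in Sham and 25.6 to 27.7 in PM, and the maternal difference from 0.6996 to 4.09 without OVA and 0.723 to 3.42 with OVA. Its interaction changed sign with centring (0.235), without both PM-OVA libraries named Rel (0.0890) and over single libraries (-1.97 to 1.42), and never passed the threshold, and the cause was not tested. Same-numbered libraries of different groups did not deviate together, with r from -0.0409 to 0.104 and 1 of 42 pairs over 0.1, so the numbers are not taken as pairs. With the replicate block, these counts were 1 and 2 for Carmil2 and 0 for the others, the interaction of the CpG-dense window was -0.349 points, and Carmil1 had 24 falling and 8 rising windows in Sham in place of 23 and 7, and 26 and 2 in PM in place of 26 and 3. For Carmil1 the number of falling windows was 19 to 24 in Sham and 22 to 28 in PM over 37 settings, and rising ones 6 to 10 and 1 to 4. Depth cannot be weighed with percentages alone. Fitting only the groups of the contrast was not run for the interaction, which uses all 4.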
